A study of Mus musculus with 20 samples.

Results

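Heat shock chaperones of mouse liver were followed across increasing oral doses of benzo[a]pyrene (BaP), a polycyclic aromatic hydrocarbon of combustion smoke. The members were 10 genes, *Hspa1a*, *Hspa1b*, *Hspa8*, *Hsp90aa1*, *Hsp90ab1*, *Dnaja1*, *Dnajb1*, *Hsph1*, *Hspe1* and *Hspd1*, and every probe whose RefSeq accession leads to 1 of these symbols was taken. These are 10 of 16535 genes named on the array, and they gave 18 of its 41174 probes. All 18 were among the 27346 probes scored as present, which means a liver signal above that of the negative control spots on 4 or more arrays in 1 or more groups of 5.

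All mice were males of the Muta™Mouse, a lacZ reporter animal (transgenic strain 40.6, 25 weeks of age), so the controls carry the same transgene as the exposed animals. All were gavaged daily for 28 days. The control group received olive oil (replicates 1 to 5), and the exposed groups received BaP dissolved in olive oil. The daily BaP dose was 25 mg/kg (replicates 6 to 10), 50 mg/kg (replicates 11 to 15) or 75 mg/kg (replicates 16 to 20). Livers were collected 3 days after dosing ended. Liver RNA of each mouse was labelled with Cy5 and hybridised to 1 array against a Cy3-labelled reference RNA pooled from 11 mouse cell lines, with no dye swap. Every value is therefore a ratio of liver over reference signal on the log2 scale, and a level below 0 means less signal in liver than in that reference.

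Chaperones bind unfolded or immature proteins and release them by cycles of ATP binding and hydrolysis. When unfolded proteins accumulate, heat shock factor 1 binds inverted GAA repeats in promoters, the heat shock element, and raises transcription of the inducible members. In the cytosol, HSP90 also holds the aryl hydrocarbon receptor, the ligand-activated factor that BaP binds, in its inactive complex.

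Some promoters of the members hold the core of this element, and 1 stretch is shown for each such promoter because members with the same or a shared promoter are compared below. The RefSeq table (GRCm38.p6) held windows of 300 bases, from 250 before to 50 after a transcript start, for 7 of the 10 members. *Hspa8*, *Hsp90aa1* and *Hsp90ab1* were not listed there. Capitals mark GAANNTTC or TTCNNGAA, each of which reads the same on both strands, and overlapping matches appear as 1 run of capitals.
Hspa1a, chr17:34972217-34972316, minus strand: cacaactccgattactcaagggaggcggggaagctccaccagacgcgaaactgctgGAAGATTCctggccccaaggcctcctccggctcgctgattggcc
Hspa1b, chr17:34959299-34959398, minus strand: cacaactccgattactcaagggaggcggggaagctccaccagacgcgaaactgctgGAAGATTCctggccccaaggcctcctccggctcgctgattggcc
Hspe1, chr1:55088053-55088082, plus strand: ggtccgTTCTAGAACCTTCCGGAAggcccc
Hsph1, chr5:149636287-149636308, minus strand: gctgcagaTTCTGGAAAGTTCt
Dnaja1, chr4:40722333-40722362, plus strand: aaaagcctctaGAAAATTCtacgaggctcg

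The 100 bases shown for *Hspa1a* and *Hspa1b* were identical, and their whole windows matched at 296 of 300 positions (98.7%). *Hspe1* and *Hspd1* lie head to head, and their windows covered the same 285 bases on opposite strands, so the run of capitals printed for *Hspe1* is also that of *Hspd1*. Either motif was found in 7 of the 12 windows of the members, from 6 of the 7 genes, and in 15.1% of the 32851 windows of all genes. A further GAA or TTC unit in the same spacing, on either strand, was found in windows of *Hspd1*, *Hspe1* and *Hsph1* and in 0.603% of all windows. The *Hsph1* run shown lies after the transcript start, and a further match in its windows, not shown, lies before it. Neither *Dnajb1* window held a match, which says only that these letters are not in these windows.

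The arrays lay on 6 slides. Slides 1 to 3, each with 1 array of every group (12 in all), were scanned in an earlier period than slides 4 to 6, with 2 arrays of each group (8 in all). Slide 6 held the 2 later controls and 2 arrays of 50 mg/kg/day, while slides 4 and 5 each held 1 array of 25 and 1 of 75 mg/kg/day. On slides 4 to 6 a change at 25 or 75 mg/kg/day is therefore also a difference between slides, and dose and slide cannot be told apart there. Position on the slide largely followed dose, with 4 of 5 controls at position 1, all 5 arrays of 25 mg/kg/day at position 2, 4 of 5 of 50 mg/kg/day at position 3 and all 5 of 75 mg/kg/day at position 4. The exceptions were 1 control at position 2 and 1 array of 50 mg/kg/day at position 4, and the part of position in the changes was not tested. The share of spots well above the liver channel's background ran from 51.9 to 67.5%, and control replicate 4, at 67.5%, stood apart from the median of 56.4%. Of 7 hepatocyte markers on the array, 7 were well above background on all 20 arrays, against 0 of 6 lung epithelial markers, 2 of which were so on no array. The labels name both lung and liver, and the samples were taken as liver.

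The chaperone genes were not called at any dose. A probe was called when limma, fitted to all 20 arrays, gave a Benjamini-Hochberg adjusted p under 0.05 over all present probes together with a fold change over 1.5. By this rule, 0 of 18 member probes were called at 25 mg/kg/day, where 0% of present probes were called, and 0 of 18 at 50 mg/kg/day, where again 0% were. For 75 mg/kg/day, 0 of 18 were called beside 0.135% of present probes, and 0 of 18 had a linear trend with dose at an adjusted p under 0.05, beside 0.157%. The lowest adjusted p from limma among the members was 0.639, 0.734 and 0.341 at the 3 doses in rising order, and 0.424 for the trend. Precision is set by the 5 arrays of a group, and a p above the threshold does not show that a level stayed the same.

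The intervals say how large a change could still be. For 14 of the 18 probes the 95% interval of the change at 25 mg/kg/day lay within 1.5-fold in both directions, and this held for 11 of 18 at each higher dose. An unadjusted p under 0.05 was reached by 1 of 18 member probes at each dose, beside 7.81, 6.7 and 11.2% of all present probes at 25, 50 and 75 mg/kg/day. The exposed arrays lay wholly on 1 side of the controls for 0 of 18 member probes at each dose, beside 1.22, 0.823 and 1.52% of the probes tested. The median change over the 18 probes was -0.01, 0.09 and -0.09 on the log2 scale in rising order of dose, and over all present probes it was 0.00 at each. Of the 18 probes, 9, 14 and 7 were higher than in the controls at 25, 50 and 75 mg/kg/day.

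**Figure D1:**
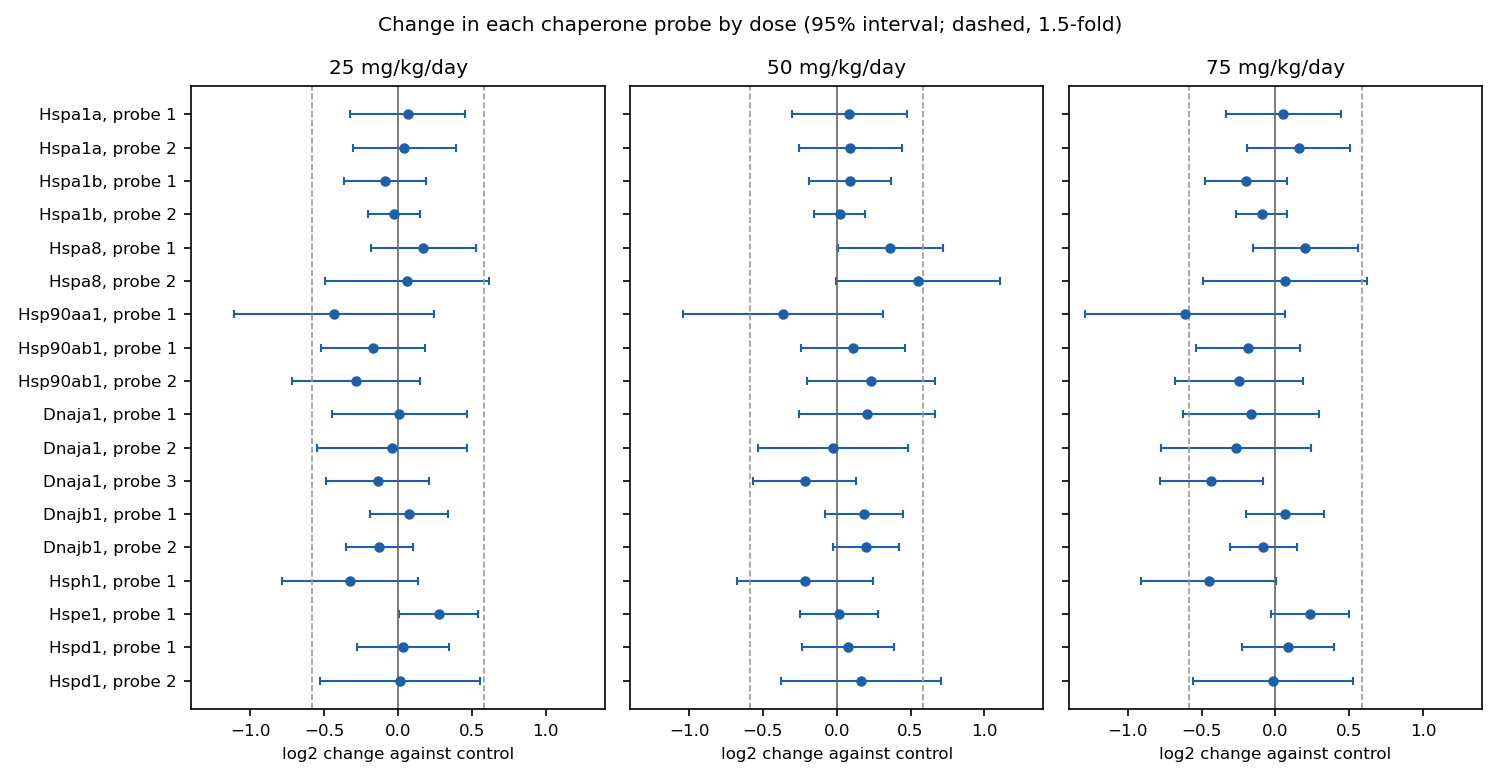
Change of each of the 18 member probes against the controls on the log2 scale (x axis), at 25, 50 and 75 mg/kg/day in 3 panels, with the 95% interval from limma as a bar and the 1.5-fold limits dashed. Probes of a gene are numbered from the brightest. At 75 mg/kg/day *Hsp90aa1* is farthest left at -0.61, and it is the only point past a dashed line.

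*Hspa1a* and *Hspa1b* encode the stress-inducible HSP70 of the cytosol, the forms that heat shock raises most. The controls had *Hspa1a* levels (probe A_52_P82741) of -0.66, -1.15, -0.55, -0.90 and -1.05. The 75 mg/kg/day arrays had -1.24, -0.76, -0.87, -0.45 and -0.72. The groups overlapped almost wholly, and the highest single level was -0.13 in replicate 7 of the 25 mg/kg/day group. Changes from the control were 0.06, 0.08 and 0.05 at 25, 50 and 75 mg/kg/day (SE 0.19 each, limma adjusted p 0.948, 0.956 and 0.946). A second *Hspa1a* probe (A_51_P117952) gave 0.04, 0.09 and 0.16, and followed the first over the 20 arrays with r = 0.91. Control liver gave 1.82- and 1.85-fold less signal than the reference by these probes.

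The brighter *Hspa1b* probe (A_52_P52803) had control levels of 0.18, -0.18, -0.10, -0.16 and -0.43. Its levels at 75 mg/kg/day were -0.30, -0.23, -0.65, -0.18 and -0.32, with 1 of 5 arrays below all controls. The change was -0.20 (SE 0.13, 95% interval -0.48 to 0.08, adjusted p = 0.593 from limma). The other *Hspa1b* probe (A_52_P304902) was well above background on 1 of 20 arrays, so its changes carry little and no fold is given. As the coding regions of this gene pair are nearly identical, which of them a probe reads is uncertain. Over the 20 arrays the brightest *Hspa1a* and *Hspa1b* probes correlated at r = 0.51 (rho 0.59), which missed the threshold in r after adjustment over the 45 pairs of members.

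*Hspa8* encodes the constitutive cytosolic HSC70, which liver makes without stress. Control levels of its brighter probe (A_51_P170371) were -1.32, -1.63, -1.73, -1.78 and -2.20. At 50 mg/kg/day they were -1.14, -1.85, -1.45, -0.92 and -1.48, with 2 of 5 arrays above all controls and the others inside the control range. Both probes were highest in this group, by 0.36 (SE 0.17, adjusted p = 0.734) and 0.55 (SE 0.27, adjusted p = 0.746) on the log2 scale by limma. The interval of the second probe (A_52_P12877) ran from 0.00 to 1.11. On slides 1 to 3 the first probe was 0.59 higher at 50 mg/kg/day than in the controls (0.30, 1.28 and 0.19 on the single slides), and on slide 6 it was 0.03 higher, a difference that was not tested. The 2 probes gave 0.20 and 0.07 at 75 mg/kg/day. Control liver gave 3.32- and 4.29-fold less *Hspa8* signal than the reference.

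*Hsph1* encodes HSP110, the nucleotide exchange factor that resets HSP70 for a new cycle. Its control levels were -0.57, -1.58, -1.41, -0.83 and -0.81 (probe A_51_P110455). In the highest dose group they were -1.69, -1.14, -1.64, -1.29 and -1.69, and 3 of 5 arrays lay below all controls. The change was -0.32, -0.21 and -0.45 at 25, 50 and 75 mg/kg/day (SE 0.22, limma adjusted p 0.729, 0.884 and 0.453). The interval at 75 mg/kg/day was -0.91 to 0.01. Within slides 1 to 3 the change at this dose was -0.75, with -0.31, -0.83 and -1.12 on the single slides. The arrays of this dose on slides 4 and 5 differed from the controls on slide 6 by 0.00.

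*Dnaja1* and *Dnajb1* encode J-domain proteins, which deliver substrates to HSP70 and start its ATP hydrolysis. For *Dnaja1* the largest change was in the dimmest of 3 probes (A_52_P310225), with control levels of 2.00, 1.5, 1.26, 1.64 and 1.72. At 75 mg/kg/day these were 0.92, 1.34, 1.71, 1.05 and 0.93, so that 3 of 5 arrays lay below all controls. The change was -0.14, -0.22 and -0.44 at 25, 50 and 75 mg/kg/day, and at the highest dose the interval was -0.78 to -0.09 (SE 0.17, adjusted p = 0.341 from limma). Arrays of this dose differed from the control of their own slide by -0.30, -0.01 and -1.08 on slides 1, 2 and 3, so that slide 3 carried most of the mean of -0.46. Those on slides 4 and 5 differed from the controls on slide 6 by -0.39. The 2 other *Dnaja1* probes gave -0.17 and -0.27 at this dose.

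The *Dnaja1* probes disagreed on where liver stood against the reference. By the brightest (A_52_P106429) control liver was 1.28-fold lower, and by the others (A_51_P303346 and A_52_P310225) it was 2.38- and 3.08-fold higher. Over the arrays they nevertheless moved together, with r of 0.83 for the first 2 and 0.85 for the last 2. Both *Dnajb1* probes were below 0 on every array, at 2.41- and 1.95-fold less signal in control liver than in the reference. *Dnajb1* was 0.18 and 0.20 higher at 50 mg/kg/day by its probes A_51_P153486 and A_52_P171663 (adjusted p = 0.817 and 0.772 from limma), and at 75 mg/kg/day they gave 0.07 and -0.08.

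*Hsp90aa1*, the inducible HSP90 of the cytosol, showed the largest change of any member and the widest spread. Control levels were -1.62, -2.54, -2.75, -1.29 and -0.92 (probe A_51_P290231). The 25 mg/kg/day arrays had -2.88, -2.80, -1.68, -1.95 and -1.99, and the 50 mg/kg/day arrays -2.04, -2.75, -2.57, -2.08 and -1.5. The highest dose gave -2.50, -1.96, -2.42, -2.36 and -2.94, and 1 of these 5 arrays lay below all controls. The 2 lowest controls, replicates 2 and 3, were the 2 control arrays of slides 4 to 6, and the other 3 lay above every array of the highest dose.

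The change in *Hsp90aa1* was -0.44, -0.36 and -0.61 at 25, 50 and 75 mg/kg/day (SE 0.32, limma adjusted p 0.748, 0.864 and 0.491). The interval at 75 mg/kg/day ran from -1.29 to 0.06. Without control replicate 5, the highest control, these changes were -0.21, -0.14 and -0.39, and with each array left out in turn the change at 75 mg/kg/day lay between -0.84 and -0.39. With slide as a block in the model the change at this dose was -0.78 (SE 0.19, adjusted p = 0.111), and with the scan period as a block it stayed at -0.61 (SE 0.18, adjusted p = 0.131). Arrays of 75 mg/kg/day differed from the control of their own slide by -0.67, -1.5 and -0.88 on slides 1, 2 and 3, so that all 3 were lower. On slides 1 to 3 together the change was -1.02 (adjusted p = 0.0685 from limma), and between the arrays of this dose on slides 4 and 5 and the controls on slide 6 it was -0.01. The difference between the slide sets in this change was not tested.

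*Hsp90ab1*, the constitutive HSP90 of the cytosol, had control levels of -1.03, -1.34, -1.29, -1.86 and -1.16 by its brighter probe (A_51_P485043). The 75 mg/kg/day arrays had -1.40, -1.34, -1.79, -1.23 and -1.84, all within the control range. The changes were -0.17, 0.11 and -0.18 in rising order of dose (SE 0.17, limma adjusted p 0.814, 0.932 and 0.721). Its dimmer probe (A_52_P257204) gave -0.29, 0.23 and -0.25. Control liver gave 3.54-fold less signal than the reference for *Hsp90aa1*, and 2.52- and 2.81-fold less for *Hsp90ab1*.

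*Hspe1* and *Hspd1* encode HSP10 and HSP60, which together form the chaperonin chamber of the mitochondrial matrix. *Hspe1* had control levels of -0.27, -0.10, -0.05, 0.19 and 0.08 (probe A_51_P436368). With 25 mg/kg/day these were 0.53, 0.12, 0.46, 0.15 and -0.04, and with 75 mg/kg/day 0.02, 0.22, 0.41, 0.01 and 0.36. Above all controls were 2 of 5 arrays of the lowest dose and 3 of 5 of the highest. The changes were 0.27, 0.02 and 0.23 at 25, 50 and 75 mg/kg/day (SE 0.13, limma adjusted p 0.639, 0.989 and 0.504). Control liver and the reference were almost level for *Hspe1*, at 1.02-fold less in liver.

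*Hspd1*, its head-to-head neighbour, gave 0.03, 0.08 and 0.09 by its brighter probe (A_51_P282706) and 0.01, 0.17 and -0.02 by its dimmer one (A_52_P1172972). Their adjusted p from limma lay between 0.873 and 0.995. Control liver was 1.23- and 1.32-fold lower than the reference by these probes.

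**Figure D2:**
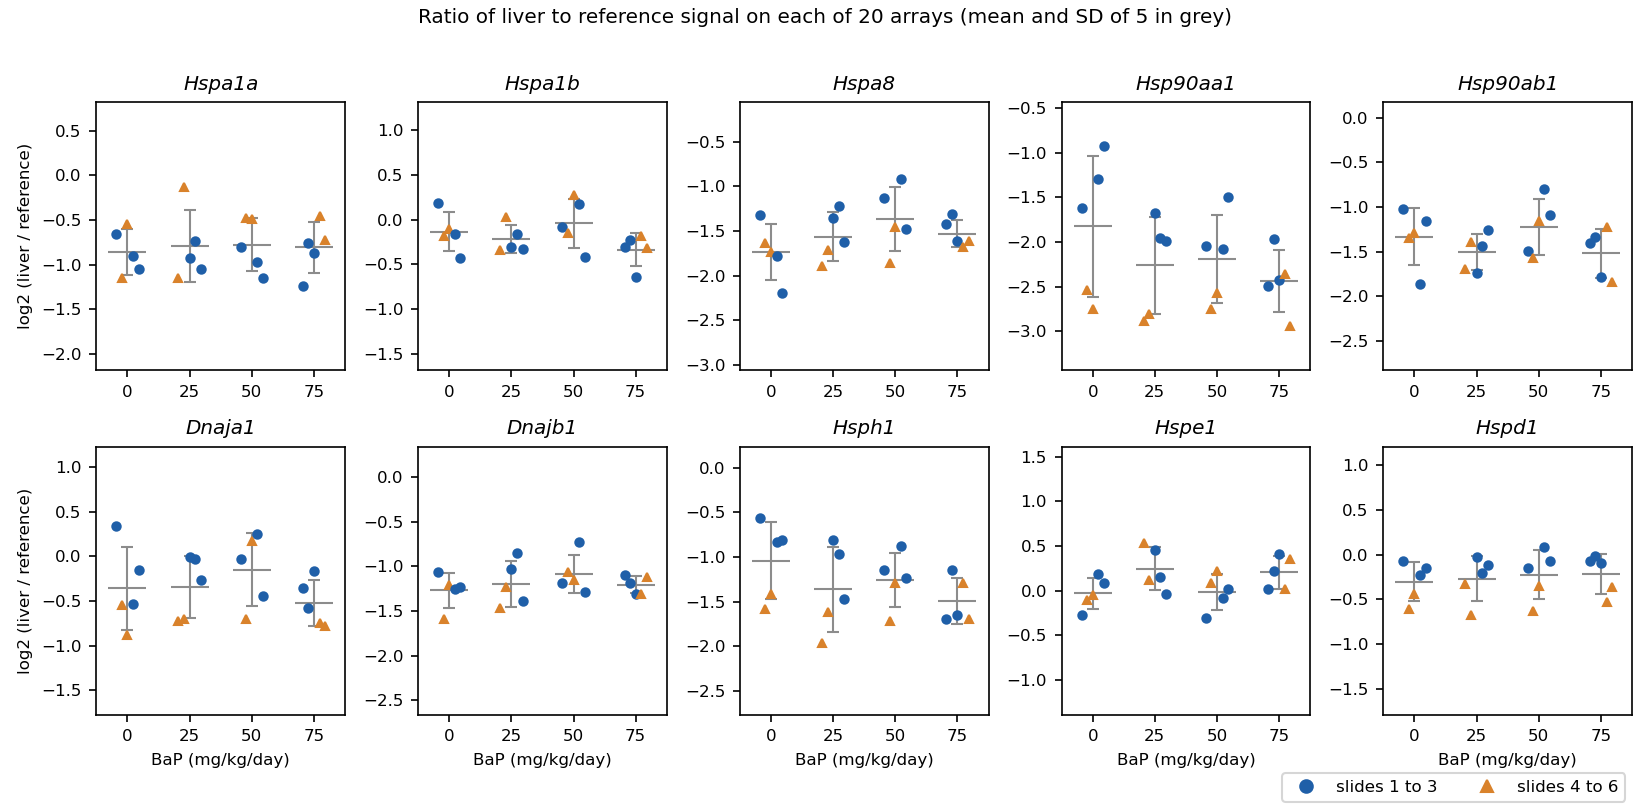
Log2 ratio of liver over reference signal (y axis, each panel spanning 3 log2 units at its own level) on each of the 20 arrays against BaP dose (x axis), by the brightest probe of each gene, with the mean and SD of 5 arrays in grey. Circles are arrays of slides 1 to 3 and triangles those of slides 4 to 6. For *Hspd1* every triangle lies below every circle, and for *Hsp90aa1* every triangle lies at -2.36 or lower.

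The largest difference of any of the 18 member probes was between the slide sets, at -0.87 for *Hsp90aa1*. The largest change of a member probe at any dose was -0.61, also in *Hsp90aa1*. In a limma model with dose group and slide set, 3 of 18 member probes were called, all lower on slides 4 to 6, beside 3.73% of present probes called in either direction. At an adjusted p under 0.05 alone there were 8 of 18, beside 27.7% of present probes. Several of these probes belong to the same gene. With the brightest present probe of each gene, 1 of the 10 members was called, beside 3.4% of all genes. By the adjusted p alone there were 4 of 10, beside 29.9% of all genes. The 3 called probes were *Hsp90aa1*, the middle *Dnaja1* probe and the dimmer *Hspd1* probe. Since 3 arrays of each group lay in the first set and 2 in the second, this shift did not move the mean change at any dose.

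*Hsp90aa1* lay between -2.50 and -0.92 on the 12 arrays of slides 1 to 3, with a median of -1.96. On the 8 arrays of slides 4 to 6 it lay between -2.94 and -2.36, with a median of -2.75. It was lower there by 1.83-fold, a difference of -0.87 (SE 0.13, adjusted p = 0.000115 from limma). The brighter *Hspd1* probe lay between -0.23 and 0.09 on the first set and between -0.67 and -0.32 on the second. These ranges do not overlap, and the difference was -0.40 (SE 0.06, adjusted p = 0.000129), with 86.2% of this probe's sum of squares lying between slides and 2.54% between dose groups.

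The dimmer *Hspd1* probe differed by -0.68 (adjusted p = 0.000215 from limma) and the middle *Dnaja1* probe by -0.62 (adjusted p = 0.000344). *Hsph1* differed by -0.47 (adjusted p = 0.00691), while the second *Hspa1a* probe went the other way, by 0.31 (adjusted p = 0.0236). *Hspe1* differed by 0.08 (95% interval -0.11 to 0.26). Over the members the median share of the sum of squares between slides was 44.4%, and over all present probes 40.2%. Between the slide sets the median share was 21.1% over the members and 11.8% over all present probes. Between dose groups it was 18.3% over the members and 15.4% over all present probes. A split into more parts takes a larger share by chance, and there were 6 slides and 4 dose groups. Shares between slides, slide sets and dose groups, here and for *Hspd1* above, are therefore not comparable with each other.

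The reference RNA was the same on all arrays, so each channel was also compared alone after quantile normalisation between arrays. For the dimmer *Hspd1* probe, liver signal was 0.11 higher on slides 4 to 6 (adjusted p = 0.446 from limma) and reference signal 0.68 higher (adjusted p = 5.3e-08). For the middle *Dnaja1* probe the liver channel differed by 0.02 and the reference channel by 0.56 (adjusted p = 4.43e-08). For *Hsp90aa1* the reference channel differed by 0.37 (adjusted p = 1.92e-05), and the liver channel gave -0.30, which missed the threshold (adjusted p = 0.0734). For these 3 probes the reference channel passed the test and the liver channel did not. The difference between the channels was not tested. *Hspa8*, by its brighter probe, rose in both channels, by 0.75 in liver (adjusted p = 0.00238) and 0.64 in the reference (adjusted p = 1.19e-07). Its ratio differed by -0.25 (adjusted p = 0.105), and by 0.19 with the scanner software's processed signals (adjusted p = 0.379, limma). *Hspe1*, with a ratio difference of 0.08, gave -0.19 in the liver channel (adjusted p = 0.101, limma) and -0.29 in the reference channel (adjusted p = 0.00652). Each channel was normalised on its own, so the channel differences need not add up to that of the ratio.

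**Figure D3:**
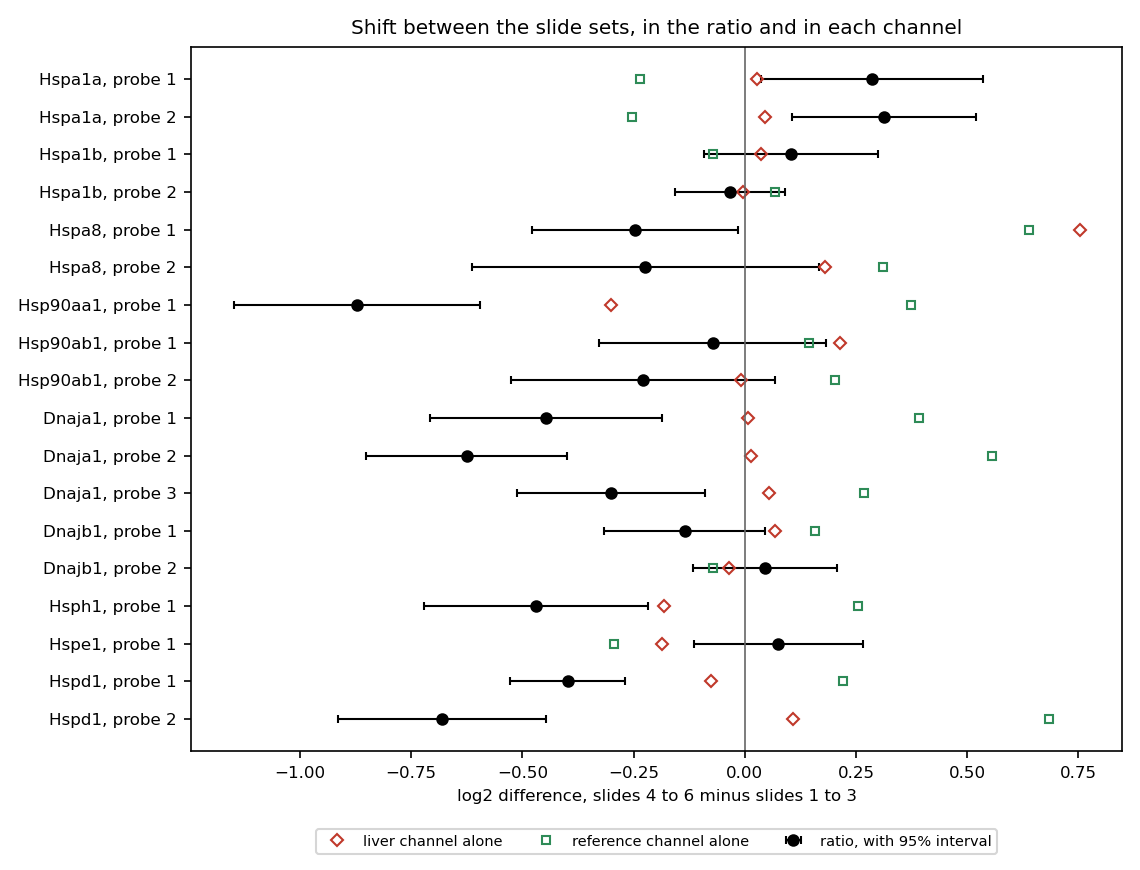
Difference between slides 4 to 6 and slides 1 to 3 on the log2 scale (x axis) for the 18 member probes, as the ratio of liver over reference with its 95% interval (black), the liver channel alone (red diamonds) and the reference channel alone (green squares). For *Hspd1* probe 2 the ratio is at -0.68, the liver channel at 0.11 and the reference channel at 0.68.

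The ratios of the 10 genes did not vary as 1 block over the arrays. Over the 45 pairs of genes, by the brightest probe of each, the median r was 0.24 and 29 pairs were positive, and 6 pairs passed an adjusted permutation p of 0.05 in both r and rho, 5 of them positive. These permutation p values took no account of slide or dose group, so shifts shared by the arrays of a slide set also enter them. The closest pair was *Hsp90aa1* and *Hsph1*, with r = 0.82 (permutation p = 3e-05, adjusted 0.00135) and rho = 0.84 (permutation p = 1e-05, the smallest that 100000 resamples can give, adjusted 0.00045). Without the 2 arrays farthest from the median of *Hsp90aa1* it was 0.81. It held within slides 1 to 3 (r = 0.70, n = 12) and within slides 4 to 6 (r = 0.75, n = 8), and was 0.66 after the slide means were removed and 0.38 after those of slide and dose group.

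Some pairs were weaker within the slide sets than over all arrays. *Hsp90aa1* and *Hspd1* had r = 0.59 over all arrays (permutation p = 0.0052, adjusted 0.0468), but -0.35 within slides 1 to 3, -0.29 within slides 4 to 6 and -0.20 after the slide means were removed. *Dnaja1* and *Hspd1* had r = 0.63 (permutation p = 0.00312, adjusted 0.0351), 0.29 and 0.26 within the sets and 0.32 after the slide means were removed. The other positive pairs lost less when the slide means were removed. *Dnaja1* and *Hsph1* had 0.64 over all arrays and 0.53 after that step, with 0.47 and 0.41 within the sets, and 0.50 without the 2 arrays farthest from the median of *Dnaja1*. *Hspa8* and *Dnajb1* had 0.59 over all arrays and 0.58 after it, with 0.66 on slides 1 to 3 and 0.13 on slides 4 to 6.

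The chaperonin partners *Hspe1* and *Hspd1* had r = -0.01 and rho = -0.01 over the 20 arrays (permutation p = 0.98 and 0.957). Within slides 1 to 3 r was -0.01 and within slides 4 to 6 it was 0.68. The 1 negative pair past the threshold was *Hsp90ab1* and *Hspe1*, at r = -0.64 (permutation p = 0.00222) and rho = -0.58, and it was alike in both slide sets (-0.63 and -0.65). Genes measured on the same array share its depth and its normalisation.

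**Figure D4:**
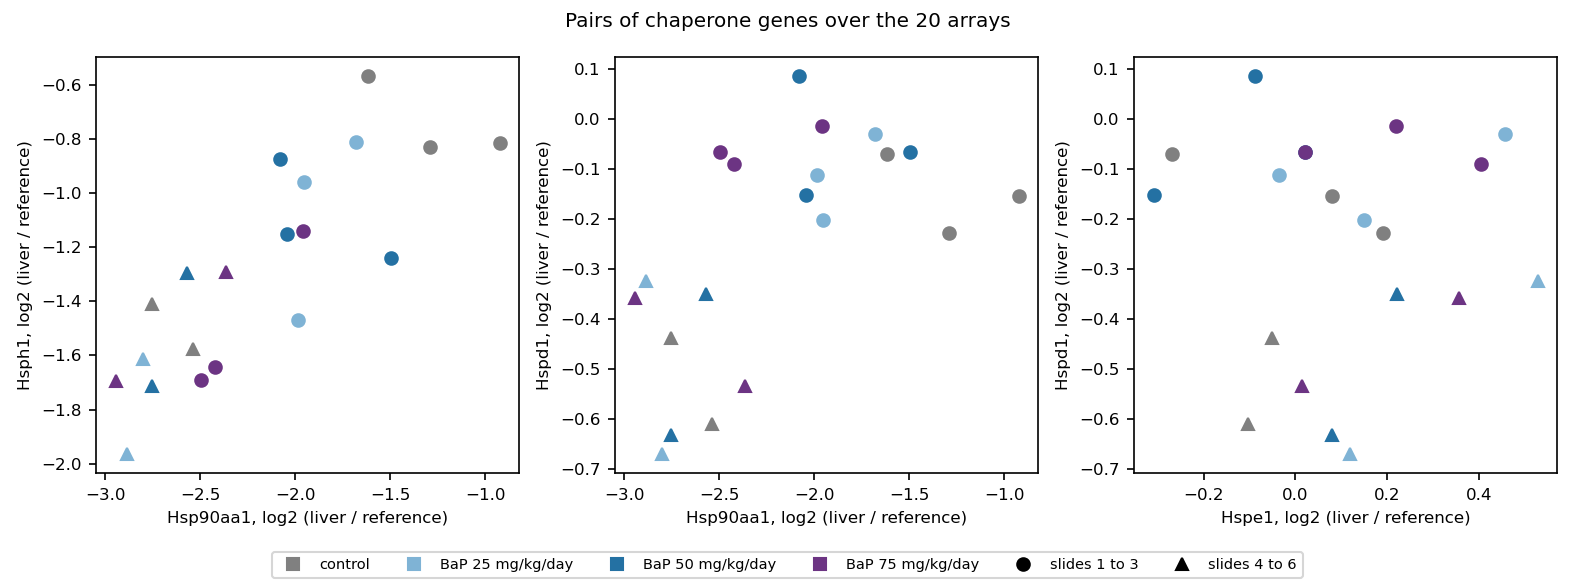
Log2 ratios of 3 pairs of chaperone genes, each point 1 of the 20 arrays, coloured by dose, with circles for slides 1 to 3 and triangles for slides 4 to 6. *Hsp90aa1* and *Hsph1* rise together (r = 0.82), *Hsp90aa1* and *Hspd1* form a cloud for each slide set, and *Hspe1* and *Hspd1* show no common slope (r = -0.01).

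The mean of the 10 genes, each centred over the arrays, was followed most closely by *Hsph1* (r = 0.90) and *Dnaja1* (r = 0.83) among the members, and went against *Hspe1* (r = -0.31). Each member is itself part of this mean, so its r is not comparable with that of a gene outside it. Among 12976 other genes, those with the highest r over the 20 arrays included *Hnrnpm* (0.86), *Arglu1* (0.85), *Pcmtd1* (0.84) and *Nono* (0.83). After the slide means were removed these lay between 0.70 and 0.79. They are given as a description of 20 points that share arrays and slides.

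The rest of the chaperone network was also not called. Of 83 further genes in 7 groups, 77 had a present probe, and 0 of 77 were called at 25, 50 or 75 mg/kg/day, beside 0, 0 and 0.2% of the 12986 genes when each is represented by its brightest present probe. Their median change was 0.01, 0.06 and -0.01 in rising order of dose. An unadjusted p under 0.05 was reached by 3, 2 and 7 of the 77, beside 1027, 968 and 1624 of the 12986 genes.

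Heat shock factor 1 (*Hsf1*), the transcription factor of the response, changed by 0.09, 0.10 and 0.11 at 25, 50 and 75 mg/kg/day (adjusted p = 0.721 at the highest dose, limma), and *Hsf4* by 0.11 at 75 mg/kg/day. Of the other HSP70 family, the largest changes at 75 mg/kg/day were those of *Hyou1*, an exchange factor and chaperone of the endoplasmic reticulum, at -0.71 (SE 0.26, adjusted p = 0.321), and *Hspa12b*, at 0.40 (adjusted p = 0.326). *Hyou1* was also lower at 25 (-0.51) and 50 mg/kg/day (-0.35). Among HSP90 co-chaperones these were *Ptges3*, which encodes p23, at -0.34 (adjusted p = 0.44), and *Fkbp4* at -0.24 (adjusted p = 0.677). Both p23 and HSP90 belong to the complex that holds the aryl hydrocarbon receptor.

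Among J-domain proteins, *Dnajc5* gave 0.49 (adjusted p = 0.328, limma) and *Dnajc3*, a chaperone of the endoplasmic reticulum, -0.24 (adjusted p = 0.58). HSP70 exchange factors were led by *Grpel2* at -0.29 (adjusted p = 0.517) and *Bag1* at -0.28 (adjusted p = 0.29). Small heat shock proteins, which hold unfolded proteins without ATP, were led by *Hspb1* at -0.52 (SE 0.23, adjusted p = 0.394) and *Hspb8* at -0.19 (adjusted p = 0.603). In the cytosolic chaperonin and prefoldin, which fold actin and tubulin, *Pfdn1* gave 0.29 (adjusted p = 0.719) and *Cct6a* -0.26 (adjusted p = 0.747). Between the slide sets, 10 of these 13 chaperonin and prefoldin genes passed an adjusted p of 0.05 in limma, 8 of them lower on slides 4 to 6, beside 29.9% of all genes. This was the highest share of any group of the network, as the others lay between 20 and 40%. Over the whole network 30 of the 77 genes passed (39%). *Cct6a* differed by -0.60 and *Pfdn4* by 0.61.

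**Figure D5:**
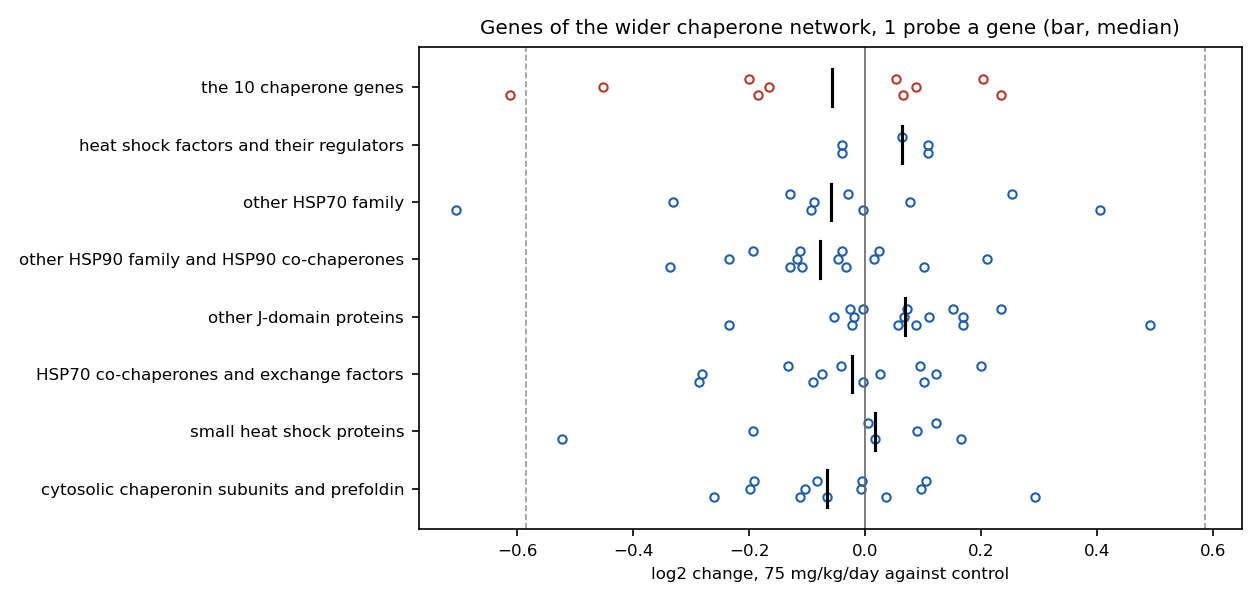
Log2 change at 75 mg/kg/day against the controls (x axis) of each measured gene of the chaperone network, 1 probe a gene, by group (rows), with the median as a black bar and the 1.5-fold limits dashed. *Hsp90aa1* and *Hyou1*, at -0.61 and -0.71, are the 2 points past a dashed line, and none was called.

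Of the markers of other liver cells, *Marco* and *Lyve1* rose at 75 mg/kg/day in the same arrays. *Marco*, a scavenger receptor of Kupffer cells, had control levels between 1.83 and 3.04 and levels at 75 mg/kg/day between 4.08 and 5.76, a rise of 2.19 (SE 0.30, adjusted p = 0.00148 from limma). *Lyve1*, of the sinusoidal endothelium, rose by 2.23 (adjusted p = 0.0189). Each was the only 1 of 6 markers of its cell type that was called at this dose. The median change of the 6 Kupffer markers was 0.21, 0.16 and 0.10 in rising order of dose, and that of the 6 endothelial markers 0.36, 0.27 and 0.40. The mean over the Kupffer list lay between 2.26 and 2.66 in control arrays and between 2.54 and 3.21 at 75 mg/kg/day. For the endothelial list these were 1.82 to 2.35 and 2.59 to 3.14. The means include *Marco* and *Lyve1*, the genes with the largest rises. At 75 mg/kg/day 5 of the 6 Kupffer markers were higher and 1 was lower (-0.30), and all 6 endothelial markers were higher, by 0.22 or more. The 7 hepatocyte markers were all higher than in the controls at each dose, with a median change of 0.30, 0.23 and 0.37 in rising order. At 75 mg/kg/day the changes were 0.14 to 0.49, and 0 of the 7 were called at any dose. The mean over this list lay between 4.69 and 5.95 in control arrays and between 5.43 and 5.78 at 75 mg/kg/day. Whether these shifts bear on the chaperone levels was not tested. In RNA from whole tissue, a change in the number of cells of a type and a change in RNA per cell cannot be told apart.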

How the data were processed

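Median spot and background intensities of the liver (Cy5) and reference (Cy3) channels, on a linear scale and not normalised, are those deposited by the authors, extracted with Feature Extraction 10.1.1.1 per the file headers. The authors also deposited processed intensities and log2 ratios normalised by LOWESS. The sources used here name no background correction for the latter. The deposited well-above-background, saturation and outlier marks (score) were used as given, and 0 spots were saturated.

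Intensities were corrected by normexp (offset 50) and normalised by loess within each array with limma 3.58.1 in R 4.3.3, and spots of a probe were averaged. Presence followed the study's methods: signal above the mean of the 153 negative control spots, trimmed by 5%, by 3 of their trimmed SDs, on 4 of 5 arrays of a group. The 4 groups were fitted together, two-sided, with Benjamini-Hochberg adjustment within a contrast. Correlations had 100000 permutations. The fits were tested on simulated data. The study fitted MAANOVA and removed 1 unnamed sample. Here limma was used and all 20 were kept. The series text gives 24 mg/kg for the lowest dose and the labels 25. Named genes were every member, 2 genes of each further list with the largest change at 75 mg/kg/day and any called gene of these lists, and the 5 nearest genes, 1 of which is not reported here. *Pfdn4* was chosen after its values were seen. The members and lists, and the markers of Kupffer cells, endothelium, hepatocytes, lung epithelium, B cells, erythroid and stellate cells, were chosen with earlier results of these data known. Of the B cell, erythroid and stellate lists, 0 genes were called at any dose. Alternatives were other background corrections, scalings and filters, the liver channel alone, slide or scan period as a block, fewer groups, either slide set alone, and each array left out. Promoters were read with Python 3.11.15, and figures drawn with matplotlib 3.10.9.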

Additional observations from a re-analysis of the deposited data

Results flagged for a closer look

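In 72 sets of 5 arrays (18 probes in 4 groups), 4 held 1 array far from the others by Dixon's criterion at a critical value of 0.71, and chance flags about 1 in 20 such sets. *Hspa1a* (A_51_P117952) was at -0.22 in replicate 7 of 25 mg/kg/day, with the nearest other array at -0.91. *Hsp90ab1* (A_52_P257204) was at -0.73 in control replicate 1, with the nearest at -1.5. Replicate 12 of 50 mg/kg/day was low for *Dnaja1* (A_51_P303346), at 0.71 against 1.24, and for *Hspd1* (A_52_P1172972), at -1.0 against -0.17.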

How the results depend on the processing

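The count of member probes called was 0 at each dose and for the trend under every alternative run. Of 1725 recomputed changes of member probes, 1630 kept their direction, 95 had the other sign and 0 were called, and the lowest adjusted p from limma was 0.0685, for *Hsp90aa1* at 75 mg/kg/day on slides 1 to 3. With the liver channel alone, 14 of 54 changes had the other sign. Between the slide sets, the liver channel alone called 1 member probe, higher (*Hspa8*), in place of 3 lower ones, and 2 to 3 were called with an array left out (2 without control replicate 3). The slide set comparison, its alternatives and the scan period block were chosen after seeing the data.

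Over all present probes, the count at 25 mg/kg/day was 0, 1 on slides 1 to 3 alone, and 0 to 2 with an array left out (2 without control replicate 3). At 50 mg/kg/day it was 0, 2 with an offset of 10, 4 with the processed signals, 3 with slide as a block, and 0 to 1 with an array left out (1 without replicate 19 of 75 mg/kg/day). At 75 mg/kg/day it was 37, 62 with the processed signals, 58 with slide as a block, 79 with scan period as a block, 5 with the control and this dose only, 0 on slides 4 to 6 alone, and 25 to 72 with an array left out (72 without replicate 19). The trend count was 43, 70 with the liver channel alone, 28 with probes well above background on all 20 arrays, 95 with slide as a block, 86 with scan period as a block, 15 on slides 1 to 3 alone, 0 on slides 4 to 6 alone, and 28 to 59 with an array left out (28 without replicate 17). The causes of these differences were not tested. Replicate numbers, which run from 1 to 20, pair no arrays, and arrays were paired by slide only.

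Liver signal was 1.29 to 1.72 times background on the arrays, which limits dim probes such as the second of *Hspa1b*.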
